A study of Homo sapiens with 6 samples.

Results

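The genes described here are 32 genes of S phase and DNA replication, taken as a list of helicase, origin, polymerase, clamp, nucleotide synthesis and cell cycle control genes by their function. No measured value enters the rule, but the list was drawn up with earlier results of these data known. All 32 were found by symbol among the 29816 Ensembl genes of the deposited table, and all 32 passed the filter on low values. The cells were KYSE-150, a long-established line from a squamous carcinoma of the human esophagus. Cells received either si-circTMEM45A, a small interfering RNA against a circular RNA named for the gene TMEM45A, or si-NC, the negative control small interfering RNA, with 3 libraries of polyA RNA in each group. No dose, time after transfection or second small interfering RNA is given in the sources used here, and all libraries come from the same line. The comparison asks how the RNA of the replication machinery differs between the 2 transfections.

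A cell copies its DNA once per cycle. In G1, ORC, CDC6 and CDT1 load the ring of MCM2 to MCM7 onto origins, and at the start of S phase CDC45 and the GINS complex turn this ring into the working helicase. Polymerases, the sliding clamp PCNA and its loader RFC then copy the strands, while ribonucleotide reductase and the thymidylate enzymes supply the precursors. Transcription of most of these genes is driven by E2F factors once cyclin E and its kinase have inactivated the retinoblastoma proteins, which is why the genes are often read as 1 programme of proliferating tumour cells.

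The list was built by function and not from the E2F recognition sequence. Since most of its genes are known to be driven by E2F, a high share of matches is no independent result. RefSeq promoter windows in GRCh38.p14, from 250 bases before to 50 bases after the start site, were found for 29 of the 32 genes and searched on both strands for the 8-base E2F words TTTGGCGC, TTTCGCGC, TTTCCCGC and TTTGCCGC, which can overlap each other. At least 1 word lay in the window of 18 of the 29 genes (62.1%), against 5.7% of the 8927 windows matched to tested genes and 3.3% of all 35116 windows. The 11 windows without a word included those of RRM2, RRM1, TK1 and SLBP. No window was matched for MCM4, MCM5 or CCNE2. The sites below, with the word in capitals, are from the genes of MCM2 to MCM7 with a word and from 4 other genes whose FPKM did not overlap between the groups. Not every match is shown. MCM6 had 4 matches and MCM2 and MCM7 had 2 each, with 1 site given for each gene. The helicase genes GINS1 and GINS2, with 1 match each, are left out. Each is given 5′ to 3′ on the strand of its gene.
MCM2, chr3:127598403-127598430, plus strand: gtgaaccactTTTCGCGCgaaacctggt
MCM3, chr6:52284729-52284756, minus strand: gttcggaagtTTTCGCGCcggggtggag
MCM3, chr6:52284899-52284926, minus strand: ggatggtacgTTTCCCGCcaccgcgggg
MCM6, chr2:135876516-135876543, minus strand: attggtcaggTTTGGCGCgaaatctcca
MCM7, chr7:100101389-100101416, minus strand: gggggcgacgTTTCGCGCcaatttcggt
PCNA, chr20:5126664-5126691, minus strand: agcgtcagggGCGGGAAAaggcgtgcgt
POLA1, chrX:24693771-24693798, plus strand: tcatcacaggGCGCCAAAcgcgcgtccg
RFC3, chr13:33818084-33818111, plus strand: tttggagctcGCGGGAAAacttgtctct
DTL, chr1:212035730-212035757, plus strand: gtgacgtcagTTTGGCGCggagtttggc
In MCM2, MCM7, DTL and the first MCM3 site the word lay within 10 bases of the annotated start, and in the first MCM3 site it spans bases -4 to 3 around it. A match is a description of the letters and no evidence that a factor binds there.

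The replication genes changed little between the transfections. The helicase subunits MCM3 and MCM2 fell with si-circTMEM45A, RRM2, the regulated subunit of ribonucleotide reductase, rose, and the other 29 genes did not pass the test. The test was limma on log2(FPKM + 1), two-sided, with Benjamini-Hochberg adjustment over the 12676 genes that reached an FPKM of 1 in at least 3 libraries, and called genes are those under an adjusted p of 0.05. FPKM is a fragment number scaled by gene length and by library total. The 2 lower calls are 6.25% of the list, near the background of 7.64% of all tested genes called lower, and the 1 higher call compares with 11.1% of all tested genes called higher. In either direction 3 of 32 (9.38%) were called, against 18.8% of all tested genes. The median log2 fold change of the list was -0.06 against 0.03 for all tested genes, with 21 of the 32 below 0. The median absolute log2 fold change was 0.09 for the list and 0.12 for all tested genes. In bulk RNA, fewer cells in S phase and less RNA per cell cannot be told apart.

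**Figure D1:**
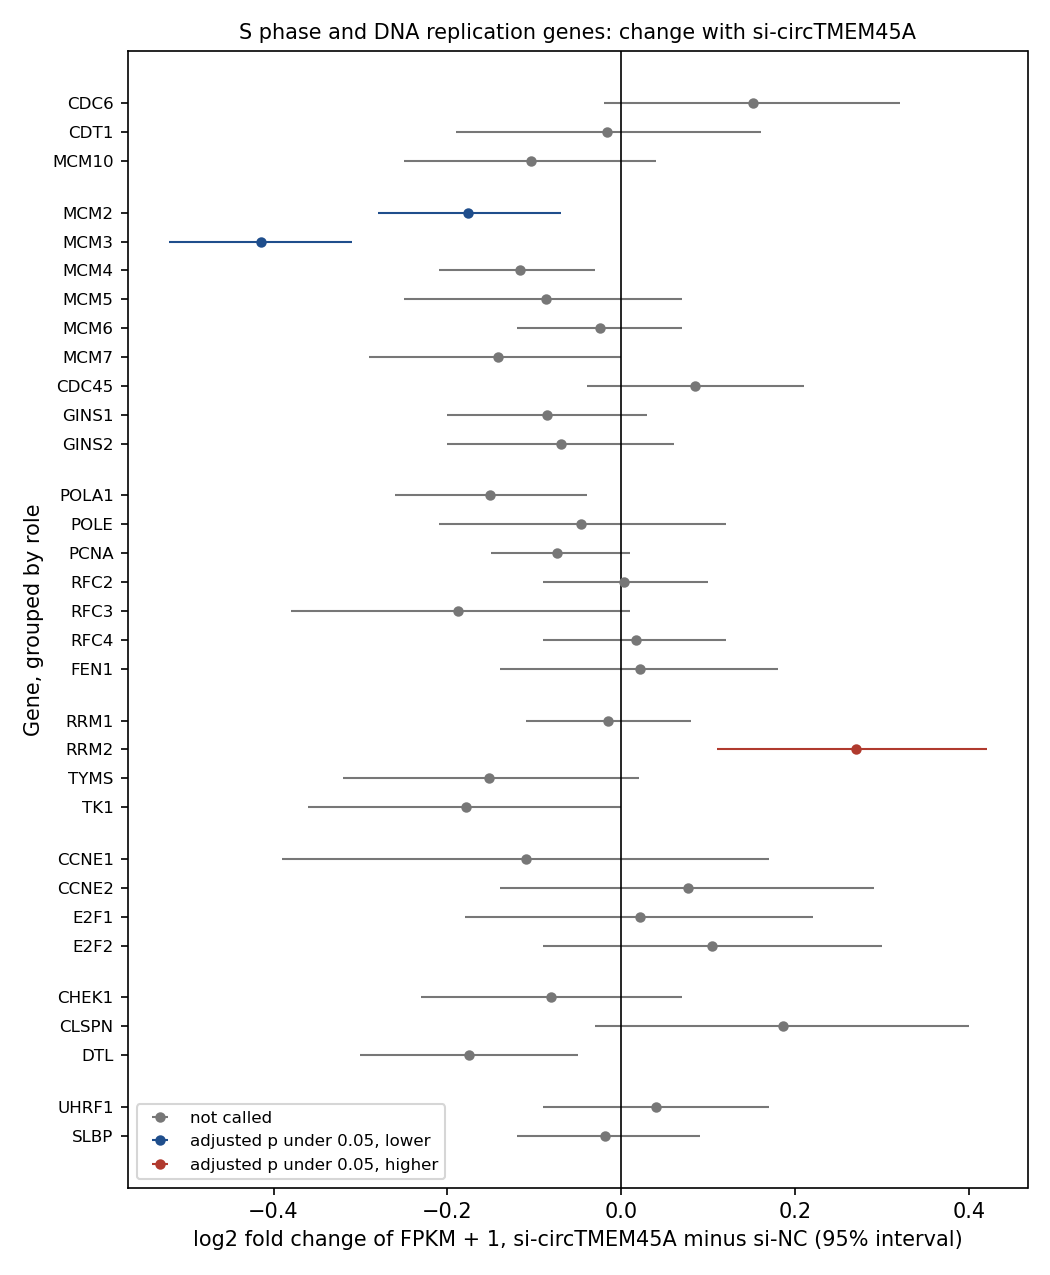
Each point is the log2 fold change of FPKM + 1 (si-circTMEM45A minus si-NC, horizontal axis, n = 3 libraries a group) of 1 gene, with its 95% interval from limma, and genes are grouped by role from licensing at the top to chromatin at the bottom. MCM3 stands alone at -0.41, MCM2 is at -0.18 and RRM2 at 0.27, while the grey genes lie between -0.19 and 0.19.

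The intervals describe the changes left possible by the spread of these libraries, which may be only technical. For all 32 genes the 95% interval of the fold change lay within a 1.5-fold change either way on the log2(FPKM + 1) scale. Among the 29 genes not called, the interval bounds ran from -0.39 for CCNE1 to 0.40 for CLSPN. The widest interval was that of CCNE1, which rested on 33 to 46 reads per library, against 5367 to 7649 for MCM3. This scale shrinks the changes of low genes. The log2 fold change of CCNE1 was -0.11 here, -0.207 with a pseudocount of 0.1 and -0.229 by limma voom, so its interval understates the possible change. At an unadjusted p under 0.05, 5 genes were lower and 1 was higher.

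Levels within the list spanned more than 2 orders of magnitude, and the order put helicase and clamp genes at the top. In the si-NC libraries MCM3 led with 121 ± 3.24 FPKM (SD, n = 3), followed by PCNA with 115 ± 1.83, MCM7 with 88.3 ± 4.13 and TK1, the salvage thymidine kinase, with 73.5 ± 6.56. MCM3 was above 98.3% of all tested genes. The cyclin E genes were lowest, CCNE2 with 1.55 ± 0.10 and CCNE1 with 1.05 ± 0.05, and CCNE1 was above only 3.8% of tested genes. Between these ends, 15 of the 31 pairs of neighbours in the order overlapped in their si-NC values, among them RRM1, MCM2 and FEN1 near 36 FPKM and the run from RFC4 to E2F1 near 21 FPKM. A group of 4 genes shares at least 20% of its exon bases with another annotated gene, so the levels and changes of these genes are uncertain. They are TYMS (46.6%, mainly with the antisense gene ENOSF1), CCNE2 (37.1%), MCM2 (23.6%) and RRM2 (20.2%).

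**Figure D2:**
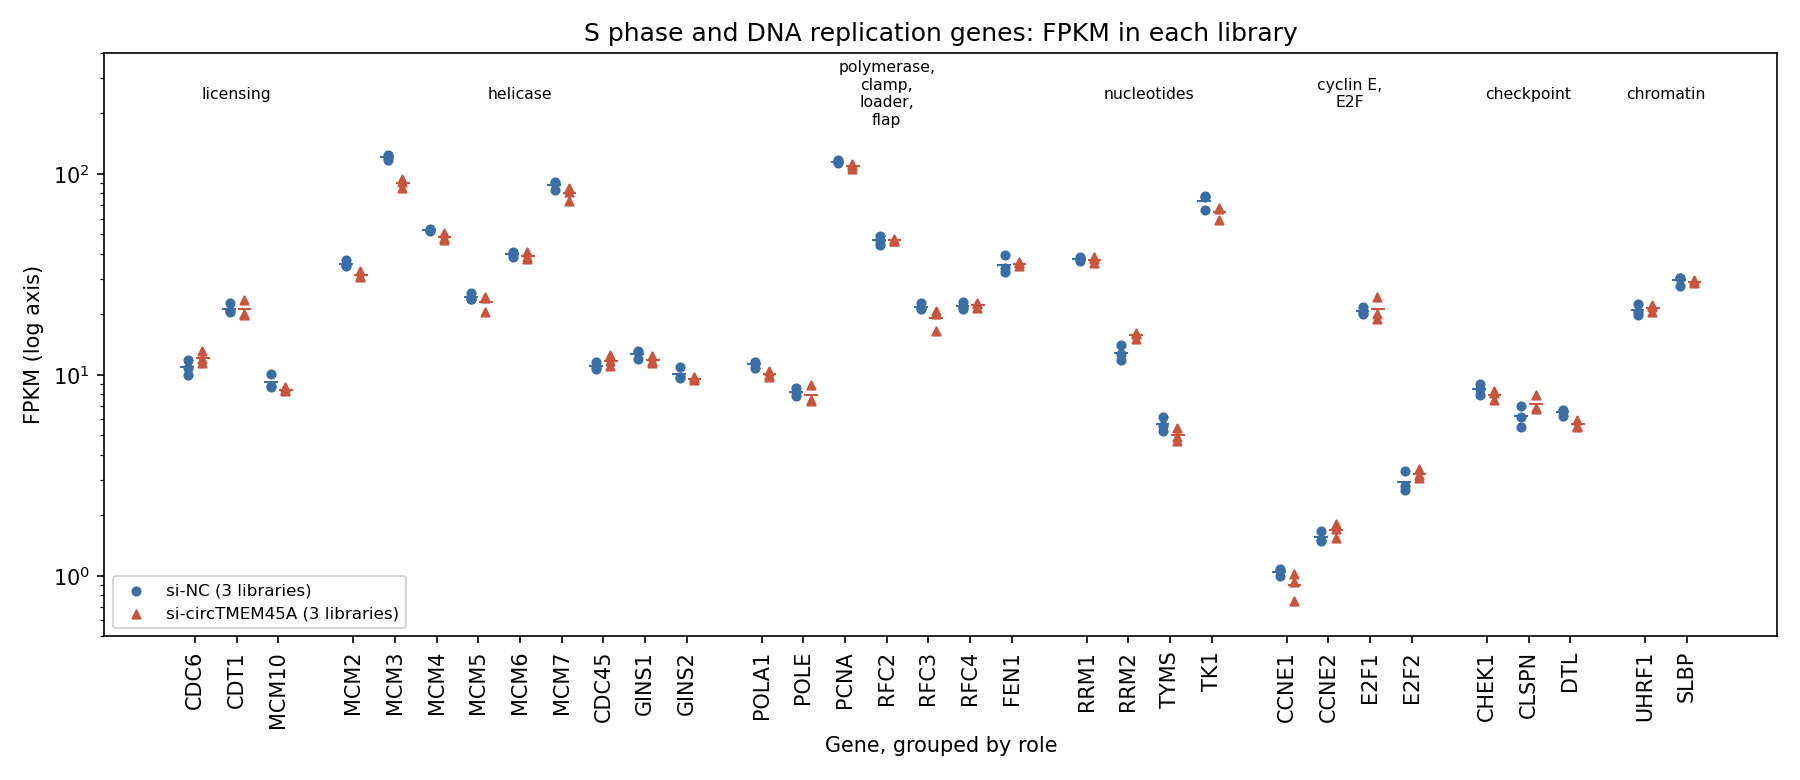
FPKM on a log axis (vertical) of the 32 genes (horizontal, grouped by role), with 1 point per library, circles for si-NC and triangles for si-circTMEM45A, and bars at the group means. The levels run from about 1 FPKM for CCNE1 to 121 for MCM3, and for most genes the circles and triangles overlap.

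The helicase genes held both lower calls. MCM3 (ENSG00000112118, chromosome 6, 52264009 to 52284881, minus strand, GRCh38) was at 124, 118 and 122 FPKM with si-NC and at 85.5, 94.6 and 91.7 with si-circTMEM45A. Every si-circTMEM45A library was thus below every si-NC library. The mean fell by 25.1%, from 121 ± 3.24 to 90.6 ± 4.63 (SD, n = 3), which is -0.41 ± 0.05 (SE) as a log2 fold change, with a limma adjusted p of 0.0023. MCM3 was called in all 19 fits, the 18 alternatives included, with limma adjusted p from 8.62e-08 to 0.0151. MCM2 (ENSG00000073111, chromosome 3, 127598223 to 127622436, plus strand) was at 37.4, 34.7 and 35.4 FPKM with si-NC and at 30.9, 32.8 and 31.1 with si-circTMEM45A. These groups did not overlap either, and the log2 fold change was -0.18 ± 0.04 (SE, limma adjusted p = 0.0315). The MCM2 call was lost when si-NC library 1 or 3 or si-circTMEM45A library 1 or 3 was left out, with limma adjusted p from 0.0694 to 0.0972. It was also lost with the replicate block (limma adjusted p = 0.0731), without a variance trend (0.0625) and with no filter on low values (0.0718).

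The remaining subunits of the ring were not called by limma on log2(FPKM + 1), although MCM4 was called lower by limma voom on the recovered reads (adjusted p = 0.0315) and with median-of-ratios scaling (limma adjusted p = 0.0423), and MCM7 by limma voom (adjusted p = 0.0314). MCM4 was at 53.3, 52.7 and 51.9 FPKM with si-NC and at 47.8, 50.6 and 47.0 with si-circTMEM45A, groups that did not overlap (log2 fold change -0.12, limma adjusted p = 0.0746). MCM7 was at 90.2, 83.6 and 91.2 against 73.2, 85.3 and 81.5, with overlap (log2 fold change -0.14, limma adjusted p = 0.157). Without si-circTMEM45A replicate 1 the log2 fold change of MCM7 was -0.0807 and that of MCM5 -0.0138, against -0.09 for MCM5 in all libraries. MCM5 was at 23.9, 23.9 and 25.7 against 20.7, 24.4 and 24.1, and MCM6 at 40.8, 38.7 and 39.8 against 37.9, 40.7 and 38.6. The groups overlapped for MCM5 and MCM6, and the interval for MCM6 (-0.12 to 0.07) was among the narrowest of the list. The 3 genes that join the ring at firing, CDC45 and the GINS subunits GINS1 and GINS2, had log2 fold changes of 0.09, -0.09 and -0.07, and none was called.

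Because the 6 subunits form 1 complex, their ratios were also taken within each library, where library scaling cancels. The log2 ratio of MCM3 to the mean of the other 5 was 1.48, 1.46 and 1.45 in the si-NC libraries and 1.15, 1.15 and 1.17 in the si-circTMEM45A libraries. The mean difference was -0.31, with an SD of 0.01 within each group, so MCM3 RNA was lower relative to its partners within the libraries. The ratios come from the same FPKM values as the MCM3 call and are no separate support for it. The ratio of MCM6 moved the other way, from -0.46 ± 0.02 to -0.30 ± 0.04 (SD, n = 3). The MCM6 ratio was also higher without overlap, by 0.11, when MCM3 was left out of the mean, a choice made after the values were seen. The ratios of MCM2, MCM4, MCM5 and MCM7 overlapped between the groups. These ratios are given as a description, with no test.

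**Figure D3:**
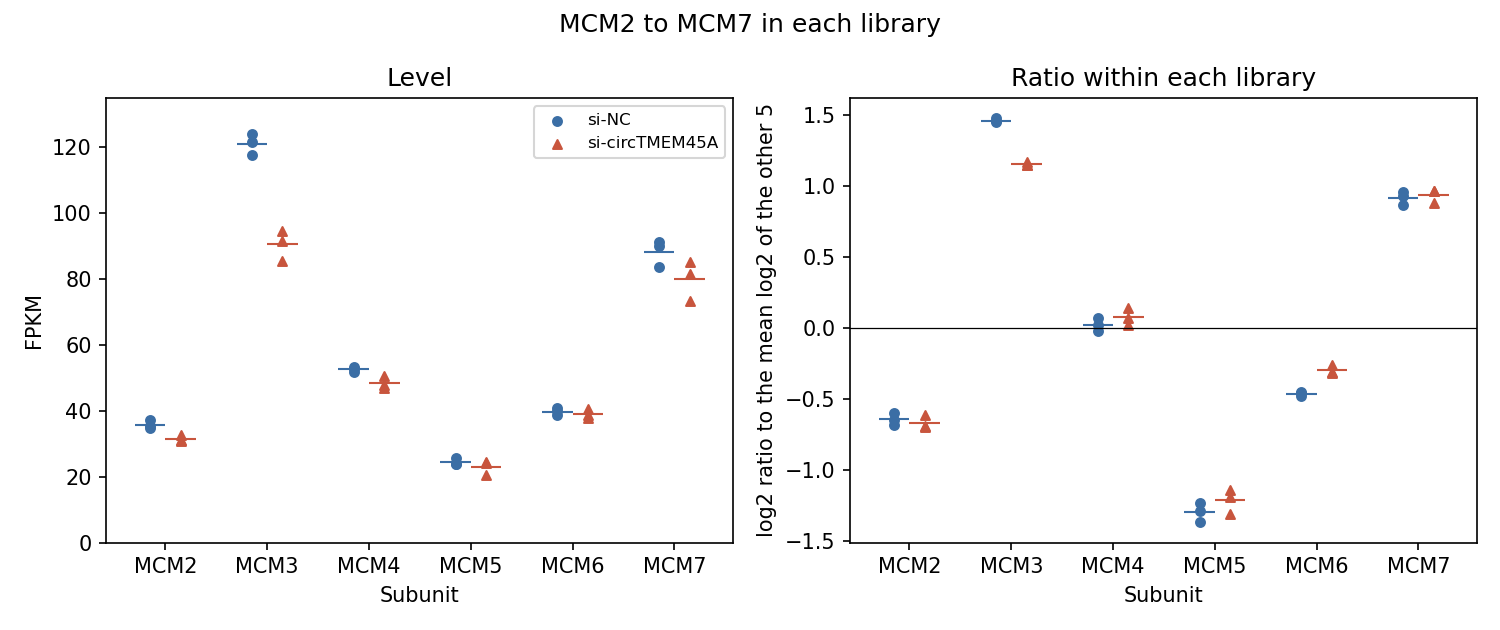
The left panel shows FPKM (vertical) of MCM2 to MCM7 in each library, and the right panel the log2 ratio of each subunit to the mean log2 of the other 5 in the same library, with circles for si-NC, triangles for si-circTMEM45A and bars at the group means (n = 3). The MCM3 ratio drops from about 1.46 to 1.16 with points that lie close together, and the MCM6 ratio rises from -0.46 to -0.30. In the left panel the FPKM of MCM6 overlaps between the groups.

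Among the polymerase, clamp, clamp loader and flap nuclease genes 0 of 7 were called by limma, with 1 lower at an unadjusted p under 0.05 and 1 lower by limma voom, POLA1 in each case. PCNA, the sliding clamp, was at 117, 113 and 114 FPKM with si-NC and at 106, 112 and 109 with si-circTMEM45A. The groups did not overlap, but the step was small (log2 fold change -0.07, interval -0.15 to 0.01, limma adjusted p = 0.177). POLA1, the catalytic subunit of the primase-associated polymerase, was at 10.8, 11.5 and 11.6 against 9.80, 9.97 and 10.5 FPKM, also without overlap (log2 fold change -0.15, limma adjusted p = 0.0659). POLA1 was called lower with median-of-ratios scaling (limma adjusted p = 0.0378), quantile normalization (0.0449) and limma voom (0.042). RFC3, a clamp loader subunit, was at 21.5, 22.7 and 21.2 against 20.9, 20 and 16.5 FPKM, and its lowest value came from si-circTMEM45A replicate 3 (log2 fold change -0.19, limma adjusted p = 0.165, and -0.0888 without that library). The other loader subunits RFC2 and RFC4 had log2 fold changes of 0.00 and 0.02. The leading-strand polymerase POLE was at -0.05 and the flap nuclease FEN1 at 0.02, both with overlapping groups.

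Nucleotide synthesis held the only higher call. RRM2 (ENSG00000171848, chromosome 2, 10120698 to 10131419, plus strand) was at 14.1, 11.9 and 12.7 FPKM with si-NC and at 16.2, 15.98 and 15.03 with si-circTMEM45A. The groups did not overlap, and the mean rose from 12.9 ± 1.15 to 15.7 ± 0.63 (SD, n = 3), which is 0.27 ± 0.07 (SE) as a log2 fold change, with a limma adjusted p of 0.0311. Its call was lost in 10 of the 18 alternatives. These were the fits that left out si-NC library 2 or 3 or any 1 si-circTMEM45A library (limma adjusted p from 0.0548 to 0.0841), those with TPM, median-of-ratios or quantile scaling (0.0528, 0.0555 and 0.0522), the fit without a variance trend (0.0522) and that with no filter on low values (0.0963). Its partner RRM1, the large subunit of the same enzyme, was at 37.9, 37.0 and 38.6 against 37.9, 38.4 and 36.1 FPKM and showed no such step (interval -0.11 to 0.08). TK1 was at 76.9, 65.9 and 77.6 against 59.1, 67.2 and 67.8 FPKM, with overlap (log2 fold change -0.18, limma adjusted p = 0.155), and was called lower by limma voom (adjusted p = 0.0326). Without si-circTMEM45A replicate 1 its log2 fold change was -0.117. TYMS, which makes thymidylate, had a log2 fold change of -0.15 (limma adjusted p = 0.188).

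The 3 licensing genes and the 4 cyclin E and E2F genes were not called by limma in either direction, and 0 of them passed by limma voom or at an unadjusted p under 0.05. CDC6, which loads the helicase, was at 11.9, 9.97 and 10.8 FPKM with si-NC and at 11.5, 13.2 and 11.98 with si-circTMEM45A (log2 fold change 0.15, limma adjusted p = 0.202). Without replicate 2 of si-NC or of si-circTMEM45A the log2 fold change was 0.0935 or 0.0986. Its partner CDT1 had a log2 fold change of -0.02, and MCM10, which acts at origin firing, one of -0.10 with groups that did not overlap (-0.0424 without si-NC replicate 1). The factors E2F1 and E2F2 were at 0.02 and 0.10, and the cyclins CCNE1 and CCNE2 at -0.11 and 0.08, all 4 with overlapping groups. E2F1 varied within the si-circTMEM45A group, at 19.1, 24.3 and 20.2 FPKM.

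Of the checkpoint and turnover genes, DTL came closest to a call. DTL, the substrate receptor that marks CDT1 for destruction in S phase, was at 6.64, 6.26 and 6.70 FPKM with si-NC and at 5.54, 5.96 and 5.53 with si-circTMEM45A. The groups did not overlap (log2 fold change -0.17, interval -0.30 to -0.05, limma adjusted p = 0.0565), and DTL was called lower with median-of-ratios scaling (limma adjusted p = 0.0388) and quantile normalization (0.0403). CLSPN, the adaptor that brings CHEK1 to stalled forks, was at 6.99, 5.49 and 6.16 against 6.78, 7.97 and 6.83 FPKM, with overlap (log2 fold change 0.19, limma adjusted p = 0.2). Without replicate 2 of si-NC or of si-circTMEM45A the log2 fold change of CLSPN was 0.112 or 0.119. The kinase CHEK1 was at -0.08. UHRF1, which guides DNA methylation after the fork, and SLBP, which binds the stem loop of histone mRNA, had log2 fold changes of 0.04 and -0.02, with intervals of -0.09 to 0.17 and -0.12 to 0.09.

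Counted without the test, 8 of the 32 genes had every si-circTMEM45A library below every si-NC library against 16.0% of all tested genes. They were MCM2, MCM3, MCM4, MCM10, POLA1, PCNA, RFC3 and DTL. The 1 gene without overlap in the other direction was RRM2, against 23.3% of all tested genes, and in either direction the background was 39.2%. By library, the summed FPKM of the 32 genes was 950, 900 and 927 with si-NC and 830, 893 and 858 with si-circTMEM45A, groups that did not overlap. Without MCM3 the sums were 826, 782 and 806 against 744, 799 and 766, and the groups overlapped. Of the 18 genes with an E2F word in the promoter window 2 were called lower and 6 were lower without overlap, with a median log2 fold change of -0.07. The 11 genes without a word had 1 higher call, 1 gene lower without overlap and a median of -0.02. The difference between these 2 sets was not tested.

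Other genes of the replication pathway gave a wider view. Of 90 such genes 87 were tested, and 13 fell and 2 rose, 14.9% and 2.30% of those tested against the same backgrounds of 7.64% and 11.1%. Their median log2 fold change was -0.06, as in the list of 32. POLA2, RNASEH2A and E2F5 did not reach the filter. They share 35.1%, 30.8% and 18.6% of their exon bases with other annotated genes, so their low FPKM is uncertain. Among 16 licensing and firing genes TOPBP1, a scaffold for firing and for checkpoint signals, and WDHD1, which couples helicase and polymerase, fell. Of 9 helicase and fork genes 0 were called by limma or limma voom, with 2 lower at an unadjusted p under 0.05, and all 6 subunits of the origin recognition complex ORC1 to ORC6 were among the genes not called. Among 19 tested polymerase and lagging-strand genes, 2 subunits of the leading-strand polymerase fell, POLE2 from 4.06 ± 0.32 to 3.00 ± 0.27 FPKM (SD, n = 3) and POLE3 from 31.8 ± 2.58 to 26.4 ± 1.05. Of 9 tested E2F family and cyclin E kinase genes 0 were called by limma, with 1 lower and 1 higher at an unadjusted p under 0.05 and 1 lower by limma voom.

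The nucleotide genes outside the list moved in both directions. Of 12 tested, 4 fell (33.3%) and 2 rose (16.7%), against 7.64% and 11.1% of all tested genes. DUT, which removes dUTP, was at 25.5, 27.5 and 26.6 FPKM with si-NC and at 22.8, 21.8 and 23.0 with si-circTMEM45A (limma adjusted p = 0.0134). CMPK1, a pyrimidine nucleotide kinase, fell from 41.3 ± 1.54 to 33.4 ± 2.24 FPKM (SD, n = 3, limma adjusted p = 0.0127). The salvage kinase DCK fell from 5.83 ± 0.89 to 4.00 ± 0.16 FPKM, and the dNTP hydrolase SAMHD1 from 7.68 ± 0.65 to 6.28 ± 0.35. SHMT1, which feeds folate carbon into thymidylate, rose from 25.3 ± 0.97 to 29.9 ± 0.94 FPKM (limma adjusted p = 0.0128), and CTPS1, the CTP synthase, from 5.34 ± 0.27 to 6.73 ± 0.38. The groups did not overlap for any of these 6 genes.

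The histone supply genes outside the list fell in part. Of 12 chromatin and histone mRNA genes 3 were called, all lower (25.0%, against 7.64% of all tested genes called lower). NASP, a histone chaperone, fell from 20.1 ± 0.67 to 16.6 ± 0.75 FPKM (SD, n = 3, limma adjusted p = 0.0111). NPAT, the coactivator of histone gene transcription, fell from 4.97 ± 0.16 to 3.91 ± 0.14 (limma adjusted p = 0.0138), and CASP8AP2, which acts with it, from 4.80 ± 0.31 to 3.88 ± 0.16 (limma adjusted p = 0.033). Among 10 checkpoint and ubiquitin ligase genes, the kinase ATR fell from 5.40 ± 0.24 to 4.51 ± 0.15 FPKM and the scaffold CUL4B from 27.8 ± 1.59 to 22.9 ± 0.32.

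Of these 15 called genes, DUT, CMPK1, SHMT1, CUL4B and NASP were called in all 19 fits. The other 10 lost their limma call in at least 1 fit that left out a library. NPAT lost it without si-NC replicate 1 (adjusted p = 0.0507), and WDHD1 without si-NC replicate 1 or 3 (0.0602 and 0.05). TOPBP1 lost it without any 1 si-NC library or si-circTMEM45A replicate 2, and POLE2 when si-NC library 2 or 3 or si-circTMEM45A library 1 or 2 was left out. CTPS1 lost it without replicate 2 or 3 of either group, and DCK in all of these fits but that without si-NC replicate 3. POLE3 lost it in all but that without si-NC replicate 3, SAMHD1 in all but that without si-NC replicate 2, CASP8AP2 in all but that without si-NC replicate 3 and ATR in all 6. Their limma adjusted p in these fits ran up to 0.119 for SAMHD1.

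The mitotic genes of the same cells gave the closest comparison. Of 32 G2/M genes 30 were tested, and 12 fell and 0 rose by limma (21 lower and 1 higher at an unadjusted p under 0.05, 14 and 0 by limma voom). NUSAP1 and PRC1 did not reach the filter. They share 62.2% and 58.4% of their exon bases with other annotated genes, so their low FPKM is uncertain. Over all tested genes 7.64% were called lower and 11.1% higher. The G2/M list had a median log2 fold change of -0.13. The S phase list had 2 lower and 1 higher of 32 and a median of -0.06. The summed FPKM of the G2/M list was 1318, 1282 and 1261 with si-NC and 1163, 1170 and 1159 with si-circTMEM45A. The groups did not overlap in these sums. In the sums of the full S phase list they were just apart, with 900 in si-NC replicate 2 against 893 in si-circTMEM45A replicate 2. Without MCM3 the S phase sums overlapped. AURKA, a mitotic kinase, was at 67.3, 67.0 and 67.4 FPKM with si-NC and at 55.9, 55.0 and 56.7 with si-circTMEM45A (limma adjusted p = 0.00275). TOP2A, the topoisomerase that untangles sister DNA, fell from 56.0 ± 0.93 to 47.1 ± 1.25 FPKM (SD, n = 3, limma adjusted p = 0.00512). CENPF, a kinetochore protein, fell from 96.7 ± 3.06 to 82.2 ± 2.13 (limma adjusted p = 0.00774), and ANLN, which acts in cytokinesis, from 73.5 ± 3.29 to 63.5 ± 1.24 (limma adjusted p = 0.0156). The promoter windows of the G2/M list were also searched. The list is made of known mitotic genes, so a high share of matches is no independent result here either. The 6-base CHR word TTTGAA, searched on both strands, lay in 17 of 26 G2/M windows (65.4%) and in 1 of 29 S phase windows (3.4%), against 9.3% of windows of tested genes. E2F words lay in 3 of the 26. Whether the lists differ in their change was not tested.

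**Figure D4:**
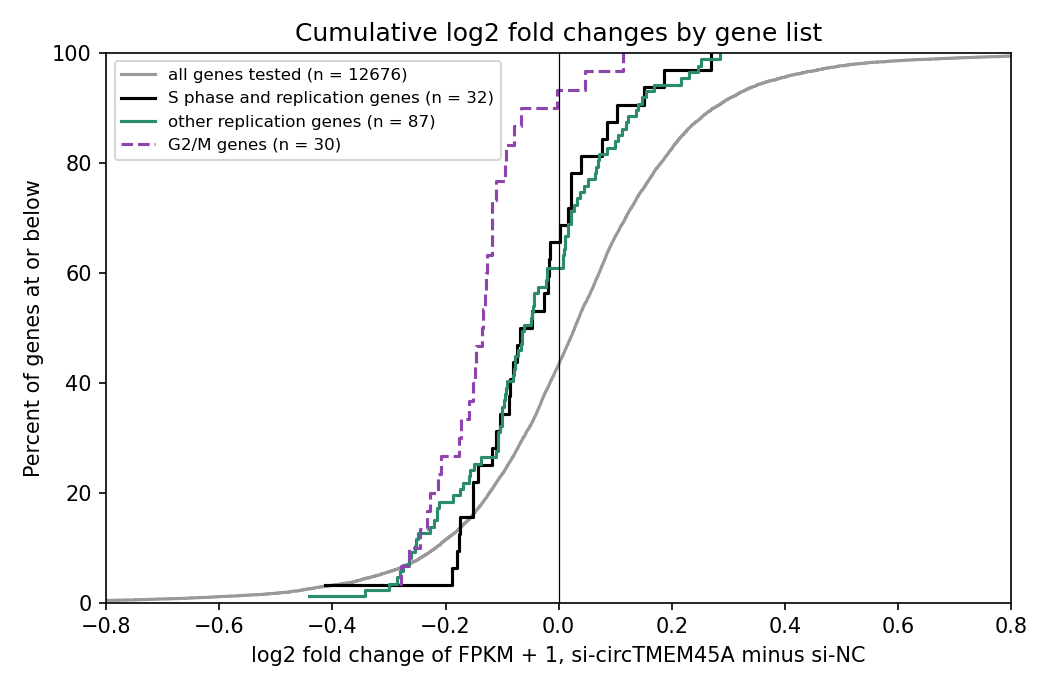
Cumulative percent of genes (vertical) at or below a log2 fold change of FPKM + 1 (horizontal, si-circTMEM45A minus si-NC) for the 32 S phase and replication genes, 87 other replication genes, 30 G2/M genes and all 12676 tested genes. The S phase and other replication curves lie close together with medians of -0.06, left of the median of 0.03 for all genes, and the G2/M curve lies further left at -0.13.

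Histone genes were a further comparison. Of 24 tested genes with a cluster histone or H1 symbol, 12 rose. H2BC12 rose from 112 ± 3.01 to 191 ± 2.03 FPKM (SD, n = 3, limma adjusted p = 0.000251) and H2AC6 from 24.7 ± 1.56 to 37.4 ± 1.43 (limma adjusted p = 0.00146). H2BC21 rose from 2.15 ± 0.16 to 4.67 ± 0.47 FPKM (limma adjusted p = 0.00157) and H3C6 from 1.72 ± 0.19 to 3.95 ± 0.32 FPKM (SD, n = 3, limma adjusted p = 0.00161) while SLBP differed by less than its spread. Replication-dependent histone mRNAs mostly lack a poly(A) tail, so polyA RNA holds only part of them, and near-identical copies can share reads.

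The libraries held 16636248 to 17323964 reads assigned to genes, and none stood apart by depth or by the share of mitochondrial reads (5.93 to 6.35%). The host gene TMEM45A, whose linear RNA is not the circle, was at 3.26, 2.90 and 3.19 FPKM with si-NC and at 2.34, 1.92 and 2.105 with si-circTMEM45A. TMEM45A was called lower (log2 fold change -0.40, limma adjusted p = 0.0167), and the circle itself was not measured. Of 12 squamous markers 10 passed the filter, while KRT6A and SOX2 stayed below 1 FPKM. TP63, KRT5, KRT14 and DSG3 were called lower, KRT5 from 360 ± 11.6 to 238 ± 10.6 FPKM (SD, n = 3) and TP63 from 27.9 ± 0.84 to 20.7 ± 1.79. KRT17 and LAMB3 were called higher, KRT17 from 70.5 ± 4.28 to 98.7 ± 5.89 FPKM (limma adjusted p = 0.00331) and LAMB3 from 68.3 ± 2.04 to 75.5 ± 2.24 (limma adjusted p = 0.0425). The summed squamous markers were 1280 to 1422 FPKM with si-NC and 1105 to 1246 with si-circTMEM45A, a sum to which SFN and KRT5 gave the most. The part of these markers in the replication results was not tested. The 12 markers of other cell types found in the table summed to 3.57 to 4.39 FPKM with si-NC and 4.12 to 4.42 with si-circTMEM45A. Most of this came from COL1A1, which passed the filter (means 1.96 with si-NC and 2.00 with si-circTMEM45A), CDH5 (0.79 and 1.03) and CD3E (0.73 and 0.60). PTPRC, PECAM1, KRT20 and VIL1 were at or near 0 in every library. Nothing in the labels ties the replicates to separate cultures, and p-values here may therefore reflect only technical spread. An exact two-sided permutation test of 3 against 3 libraries cannot give less than p = 0.1.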

How the data were processed

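PolyA RNA-seq of 3 si-NC and 3 si-circTMEM45A libraries was used, with groups read from the sample titles. The authors deposited FPKM per Ensembl gene. The submitters' processing notes name HISAT2 2.2.1, StringTie 2.1.6, HTSeq, cutadapt 1.9 and TopHat2, and the build GRCh38, but no role for each tool. The annotation and strand setting are not stated there. With GENCODE 29 union exon lengths, all FPKM values gave whole reads (tolerance 0.01), whose sums are the depths given. The number of reads sets the counting error. Symbols were found for 29593 of 29816 gene IDs.

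Genes that reached an FPKM of 1 in 3 or more libraries were tested with limma 3.58.1 (R 4.3.3, mean-variance trend) on log2(FPKM + 1), a scale that shrinks the changes of low genes. Lists are described by counts and medians, with no list test. Python 3.11.15, pandas 2.3.3, numpy 2.4.6 and matplotlib 3.10.9 were used. The fit was also run on simulated reads, with the same extra spread set for every gene and with independent libraries. That run cannot show the effect of a shared culture or batch. The 32 genes, the other lists and the alternatives were chosen with earlier results of these data known. By rule, values in every library are given for those of the 32 genes that were called, had the 3 largest changes in a direction or belong to MCM2 to MCM7. Of the other lists, at most 4 called genes by smallest p are given for each role. The library values of POLA1, PCNA, DTL, RRM1, E2F1, DUT and AURKA and the values of DCK and SAMHD1 fall outside this rule and were chosen after the values were seen. The alternatives were 2 pseudocounts, 2 filters, 3 scalings, 2 variance settings, a block for the replicate number and each library left out in turn. Limma voom on recovered reads and a filter on 20 reads were chosen after seeing the data. A single result within the histone list is not reported here.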

Additional observations from a re-analysis of the deposited data

How the results depend on the processing

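MCM3 was called lower under all 18 alternatives, and 24 of the 32 genes were called under none. The number of the 32 called lower was 2 as reported, 5 with median-of-ratios scaling, 4 with quantile normalization, 6 with limma voom and 1 with no filter, without a variance trend and with the replicate block. The number called higher was 1 as reported and 0 with no filter, TPM, median-of-ratios scaling, quantile normalization and no variance trend. Leaving out 1 library gave 1 to 2 lower and 0 to 1 higher, and the median log2 fold change ranged from -0.065 to -0.019. Of the other replication genes, 5 fell and 1 rose with no filter, and 10 fell and 1 rose with the replicate block. Leaving out 1 library gave 5 to 9 of them lower and 1 to 2 higher. The fits without a library have fewer samples. Over all tested genes 969 were lower and 1411 higher, and 1237 and 1021 with median-of-ratios scaling, which moved the median of all genes from 0.03 to -0.002. The split was 1168 lower and 1119 higher with quantile normalization. Same-numbered libraries deviated together only weakly (r = 0.026, 0.011 and 0.047), although each si-circTMEM45A library correlated best with the si-NC library of its own number. These values cannot decide whether a shared number marks a shared culture or batch. The replicate block moved the calls over all genes to 720 lower and 1000 higher. Those of the 32 genes moved to 1 lower and 1 higher, and those of the other replication genes to 10 lower and 1 higher.

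Of the genes near 0, none of them called in any fit, RFC2 changed sign with TPM (-0.00645), median-of-ratios scaling (-0.0325) and quantile normalization (-0.0314). RFC4, FEN1 and E2F1 did so with median-of-ratios scaling (-0.0178, -0.0139 and -0.013). When 1 library was left out, the log2 fold change ranged from -0.0947 to 0.0306 for CDT1, -0.0293 to 0.0355 for RFC2, -0.00672 to 0.0495 for RFC4, -0.0325 to 0.0992 for FEN1, -0.0326 to 0.0118 for RRM1, -0.0779 to 0.0908 for E2F1 and -0.0604 to 0.00378 for SLBP. Other uncalled genes moved by over 1.5 times without 1 library. The log2 fold change then ranged from -0.12 to -0.00693 for POLE, -0.0538 to -0.00491 for MCM6 and 0.00777 to 0.0883 for UHRF1. Without si-NC replicate 1 the log2 fold change was -0.0989 for TYMS, 0.175 for E2F2 and -0.0381 for CHEK1. Without si-NC replicate 3 it was -0.0542 for MCM5, -0.0165 for GINS2, 0.0562 for E2F2 and -0.126 for CHEK1. Leaving out a si-circTMEM45A library gave 0.0449 (replicate 1) or 0.116 (replicate 2) for CCNE2, 0.044 for CDC45 and -0.0401 for CHEK1 (both replicate 2) and -0.0502 for CCNE1 (replicate 3). The cause of these changes was not tested. CCNE1 had no value when si-NC library 2 or 3 or si-circTMEM45A library 2 was left out, since it then missed the filter, and 3 of the 32 genes (CCNE1, CCNE2 and E2F2) missed the filter at an FPKM of 5. Depth limits CCNE1, CCNE2, TYMS and E2F2 most, which rested on 33 to 312 reads per library.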
